A study of Mus musculus with 8 samples.

Results

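The genes described here are 9 markers of mural cells, the cells that wrap blood vessels: the pericyte genes Pdgfrb, Notch3, Rgs5 and Cspg4, and the contractile smooth muscle genes Acta2, Myh11, Tagln, Cnn1 and Mylk. They were chosen by name, and each was read from the probe set that carries its symbol alone, 1 probe set for each gene. All 9 were found among the 19938 singly named genes on the arrays. The study set 4 hearts of mice given recombinant DJ-1 protein against 4 hearts of mice given phosphate-buffered saline (placebo). DJ-1 is a redox-sensitive protein encoded by Park7. All 8 mice were males of the strain labelled CH3, 8 to 10 weeks old and weighing 25 to 30 g, and each was injected 1 hour ahead of a 45 minute closure of the left anterior descending coronary artery, which was followed by 2 hours of reperfusion. Every heart therefore had ischaemia and reperfusion, and levels without ischaemia were not analysed here. Replicate numbers are all that the labels give within a group, so p-values measure the spread between these samples. RNA came from ground myocardial tissue, which mixes all cell types, so fewer mural cells and less RNA per mural cell cannot be told apart.

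Pericytes sit on capillaries within the endothelial basement membrane, and vascular smooth muscle cells form the contractile coat of arteries and arterioles. Endothelial cells secrete PDGF-B, which acts on the receptor PDGFR-beta (Pdgfrb) to recruit mural cells, and Notch3 is the main Notch receptor of these cells. The contractile genes are largely driven by serum response factor with its partner myocardin. In the heart, pericytes are abundant along the dense capillary bed and are known to constrict capillaries after ischaemia.

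The notch receptor gene Notch3 and the actin gene Acta2 varied in opposite directions between the 8 hearts, as described further on. The sequences just before their starts are shown here, and whether they bear on that relation was not tested. Notch receptors act through the DNA-binding protein RBPJ, whose core binding sequence is TGGGAA. Serum response factor binds the CArG box, which in its strict form is CC and GG around 6 letters that are each A or T. Both were searched on both strands of the 250 bases before the transcript start that RefSeq's promoter table (GRCm38.p6) uses for each gene. That start need not be the outermost one of the gene span given further on: for Acta2 it lies 212 bases inside the span, so most of the Acta2 window is within the annotated gene, and for Notch3 it lies 6 bases inside. The Acta2 window is on the minus strand at chr19:34255374-34255623 and the Notch3 window on the minus strand at chr17:32166891-32167140. Capitals mark TGGGAA and CArG boxes with at most 1 of the 6 inner letters other than A or T.
Acta2: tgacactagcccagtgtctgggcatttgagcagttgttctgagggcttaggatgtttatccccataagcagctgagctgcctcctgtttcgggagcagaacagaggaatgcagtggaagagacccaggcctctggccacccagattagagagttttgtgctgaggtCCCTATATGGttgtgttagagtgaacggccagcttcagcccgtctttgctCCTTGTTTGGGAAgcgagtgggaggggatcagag
Notch3: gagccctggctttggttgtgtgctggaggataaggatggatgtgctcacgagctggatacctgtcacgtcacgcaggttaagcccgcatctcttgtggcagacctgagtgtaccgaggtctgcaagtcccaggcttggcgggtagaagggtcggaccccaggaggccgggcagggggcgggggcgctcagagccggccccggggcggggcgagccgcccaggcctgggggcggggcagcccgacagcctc

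The Acta2 window held 1 TGGGAA, whose first base lies 27 bases before the start used, and the Notch3 window held none (0). The strict CArG box was found in 0 of the 6 windows at hand for the 9 genes and in 1.47% of all 32851 windows of the same length. No window was at hand for Pdgfrb, Myh11 and Tagln, so the search says nothing about these genes. With 1 inner letter free, a search added after seeing the sequence, the Acta2 window held 2 CArG boxes, which begin 84 and 34 bases before the start used, and the other 5 windows held none (0). This looser form occurs in 8.59% of all windows. The second of these boxes shares 3 letters with the TGGGAA, and TGGGAA itself occurs in 21.6% of all windows. For Mylk the start used lies 39751 bases inside the gene span, so its window is that of a shorter transcript. G and C made up 53.6% of the bases in the Acta2 window and 68.8% in the Notch3 window.

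The comparison of DJ-1 with placebo hearts asked which transcripts differ in reperfused myocardium after the protein was given. With limma, 0 of the 9 genes had an adjusted p under 0.05, and the same held for every other gene (0% of 19938). An unadjusted p under 0.05 was found for 1194 genes (5.99%, with 2.36% lower and 3.63% higher in DJ-1 hearts), and a linear model without moderated variances also called 0 genes. The mean of all 4 pericyte genes was lower in DJ-1 hearts, with differences from -0.30 to -0.10 on the log2 scale. The contractile genes were divided: Acta2 and Cnn1 had higher means in DJ-1 hearts by 0.21 and 0.29, Myh11 had a lower mean by a difference of -0.13, and Tagln and Mylk differed by no more than 0.01 in size. Over all genes tested, the DJ-1 mean was lower for 47.5% and higher for 52.5%, and the median difference was 0.01. All 9 genes lay above 4.74, the 95th percentile of olfactory receptor genes, taken here as the background level. In the labels the sample codes run by group, so if they mark a processing order, that order and the treatment cannot be told apart.

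Among the pericyte genes, Pdgfrb (chr18:61045127-61085067) encodes the receptor tyrosine kinase for PDGF-B and is also expressed by fibroblasts. Its log2 value was 8.79, 8.67, 8.82 and 8.73 in DJ-1 replicates 1 to 4, against 9.07, 8.94, 8.84 and 9.36 in placebo replicates 1 to 4. Every DJ-1 heart was below every placebo heart, although the highest DJ-1 value and the lowest placebo value, both from replicates numbered 3, lay close together. The means were 8.75 ± 0.07 in DJ-1 hearts and 9.05 ± 0.23 in placebo hearts (SD, n = 4 each). The difference was -0.30 (SE 0.12, 95% confidence interval -0.55 to -0.04), which is 0.813-fold on the linear scale, and its limma adjusted p was 0.824. An exact two-sided permutation over the hearts gave p = 0.0286, the smallest that 4 against 4 can give. Any gene without overlap gets this p, so it restates the lack of overlap. Adjusted over all genes, the exact permutation p was 0.855. Groups without overlap were found for 3.22% of all genes, 1.68% lower and 1.54% higher in DJ-1 hearts. Pdgfrb was the 1 gene of the 9 without overlap, and the 1 with an unadjusted limma p under 0.05. Without placebo replicate 4, the highest value, the Pdgfrb difference was -0.20.

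Notch3 (chr17:32120820-32166896), the receptor whose mutation causes the human small-vessel disease CADASIL, showed the next largest difference of the pericyte genes. Its values were 7.31, 7.26, 7.21 and 7.15 in DJ-1 replicates 1 to 4, against 7.43, 7.61, 7.29 and 7.41 in placebo replicates 1 to 4. The groups overlapped through placebo replicate 3 alone, which lay below DJ-1 replicate 1. Notch3 differed by -0.20 (SE 0.10, 95% confidence interval -0.41 to 0.01, limma adjusted p = 0.824). The difference is within the uncertainty of 4 hearts a group.

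Cspg4 (chr9:56865104-56899870) encodes the proteoglycan NG2, a surface marker of pericytes. It read 6.73, 6.77, 7.07 and 6.89 in DJ-1 replicates 1 to 4 and 7.04, 6.98, 6.86 and 7.20 in placebo replicates 1 to 4. The replicates numbered 3 ran against the other 6 hearts, with the highest DJ-1 and the lowest placebo value. The Cspg4 difference of -0.16 (SE 0.11) had a confidence interval from -0.40 to 0.09, and it was -0.27 when DJ-1 replicates 3 and 4 were left out and -0.10 when placebo replicate 4 was. Rgs5 (chr1:169655501-169695813), a regulator of G protein signalling that is enriched in pericytes, read 10.66, 10.65, 10.56 and 10.37 in DJ-1 hearts and 10.51, 10.81, 10.65 and 10.67 in placebo hearts, in the order of their replicate numbers. The 2 groups of Rgs5 values overlapped widely, and the difference was -0.10 (SE 0.10, 95% confidence interval -0.33 to 0.13). Its difference was -0.03 without DJ-1 replicate 4, the lowest value, -0.05 without placebo replicate 2 and -0.15 without placebo replicate 1.

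**Figure D1:**
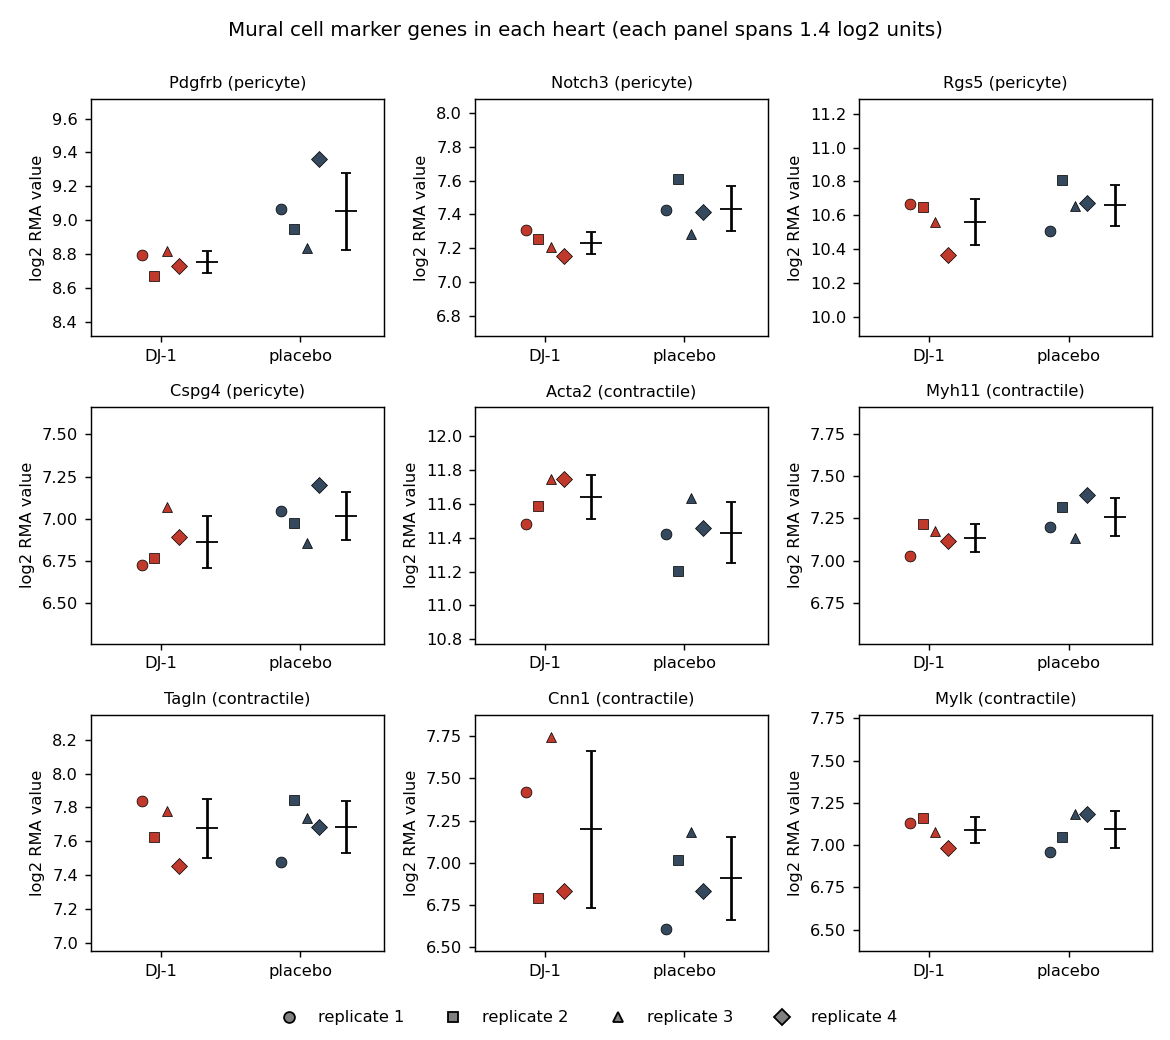
Log2 value of each of the 9 genes (y axis) in the 4 DJ-1 and 4 placebo hearts (x axis), with a marker shape for each replicate number and the mean ± SD beside the points; every panel spans the same range of log2 units. The Pdgfrb groups do not overlap, while the groups of the other 8 genes do.

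Acta2 (chr19:34240336-34255585) encodes smooth muscle alpha-actin, which pericytes close to arterioles and activated fibroblasts can also make. Its values were 11.48, 11.58, 11.75 and 11.75 in DJ-1 replicates 1 to 4, against 11.42, 11.20, 11.64 and 11.46 in placebo replicates 1 to 4. The highest values were those of DJ-1 replicates 3 and 4, but placebo replicate 3 lay above DJ-1 replicates 1 and 2. The difference of 0.21 (SE 0.11) had a confidence interval from -0.04 to 0.46 and a limma adjusted p of 0.824. It was 0.10 when DJ-1 replicates 3 and 4 were left out and 0.13 when placebo replicate 2 was. Cnn1 (chr9:22099221-22109221) encodes calponin, an actin-binding protein of contractile smooth muscle. It read 7.42, 6.79, 7.74 and 6.83 in DJ-1 replicates 1 to 4 and 6.61, 7.02, 7.18 and 6.83 in placebo replicates 1 to 4. DJ-1 replicates 1 and 3 were the highest of all 8 hearts, and DJ-1 replicates 2 and 4 lay within the placebo range. The pooled SD within groups was 0.371 for Cnn1, against 0.096 to 0.167 for the other 8 genes. Its difference of 0.29 (SE 0.21, 95% confidence interval -0.16 to 0.74) came down to 0.105 without DJ-1 replicate 3 and to 0.19 without placebo replicate 1.

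Myh11 (chr16:14194527-14292188), the smooth muscle myosin heavy chain and the most restricted of the contractile markers, read 7.03, 7.21, 7.18 and 7.11 in DJ-1 hearts and 7.20, 7.32, 7.14 and 7.39 in placebo hearts, in the order of their replicate numbers. Its difference was -0.13 (SE 0.09, 95% confidence interval -0.33 to 0.08), so this contractile gene stood on the same side as the pericyte genes, and it was -0.08 without placebo replicate 4. Tagln (chr9:45929628-45936058), which encodes the actin-binding protein transgelin (SM22-alpha), averaged 7.68 ± 0.17 in DJ-1 hearts and 7.69 ± 0.15 in placebo hearts (SD, n = 4 each). Mylk (chr16:34745199-35002436), the myosin light chain kinase that starts smooth muscle contraction, averaged 7.09 ± 0.08 in DJ-1 hearts and 7.09 ± 0.11 in placebo hearts (SD, n = 4 each). The confidence intervals of the differences ran from -0.26 to 0.24 for Tagln and from -0.21 to 0.20 for Mylk, and the sign of both changed with quantile normalization and cyclic loess.

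To contrast the pericyte with the contractile genes, each gene was centred on its mean over the 8 hearts, and the genes of each set were averaged within a heart. These averages carry no test, since the genes were chosen with earlier results of these data known. The pericyte average was -0.07, -0.11, -0.03 and -0.16 in DJ-1 replicates 1 to 4, against 0.06, 0.14, -0.04 and 0.21 in placebo replicates 1 to 4. DJ-1 hearts were all below 0, and placebo replicate 3 was the only placebo heart among them. The contractile average was 0.07, -0.04, 0.19 and -0.09 in DJ-1 replicates 1 to 4 and -0.18, -0.03, 0.06 and -0.001 in placebo replicates 1 to 4, with no order between the groups. The difference of 0.07 in the contractile average was 0.02 without DJ-1 replicate 3 or without placebo replicate 1, and 0.11 without DJ-1 replicate 4. The pericyte average minus the contractile average was -0.13 ± 0.07 in DJ-1 hearts and 0.13 ± 0.16 in placebo hearts (SD, n = 4 each), a difference of -0.26. It lay between -0.23 and -0.08 in the DJ-1 hearts and between -0.10 and 0.24 in the placebo hearts. Without placebo replicate 3 the difference of the contrast was -0.34.

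**Figure D2:**
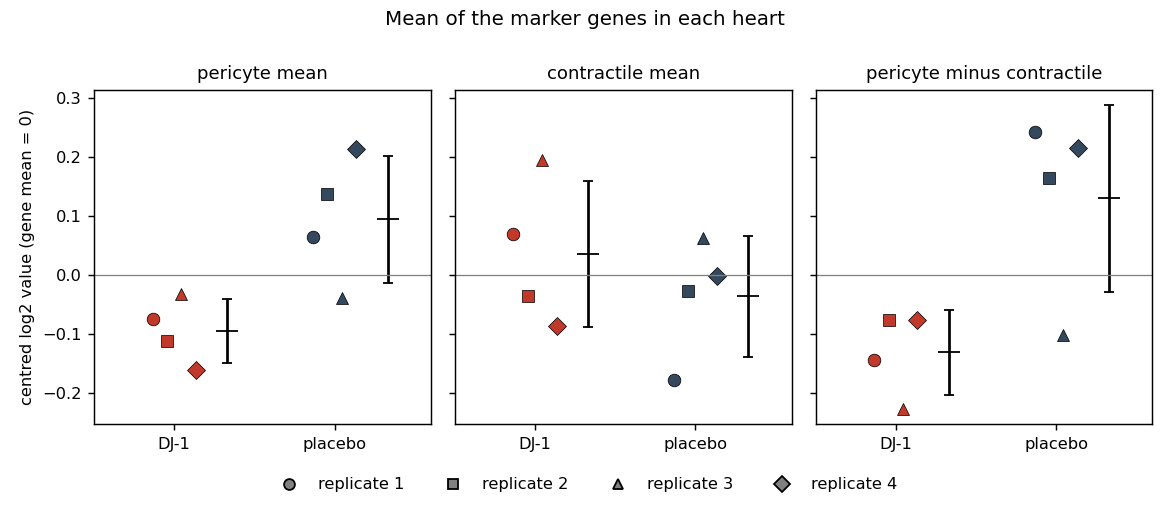
Average of the centred log2 values of the 4 pericyte genes, of the 5 contractile genes, and the pericyte minus the contractile average (y axes, where 0 is the mean over all hearts) in DJ-1 and placebo hearts, with the mean ± SD beside the points. Placebo replicate 3 lies among the DJ-1 hearts in the left and right panels, and the contractile averages of the groups overlap throughout.

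Other markers of the same cells were listed alongside the 9 genes. Of 15 other pericyte genes, 14 were lower on average in DJ-1 hearts and 1 was higher, Steap4 with a difference of 0.21, and the median difference was -0.17. Genes of higher level leaned the same way: among those above the median level, where all 9 genes lie, the DJ-1 mean was lower for 61.2%, with a median of -0.03, and for 13 of the 14 other pericyte genes found there, with a median of -0.17. None passed the adjusted threshold (0 of 15). An unadjusted limma p under 0.05 was found for 3, all on the lower side, where 2.36% of all genes had such a p. These are the 3 genes named next, chosen for their small p. Kcnj8, the Kir6.1 potassium channel subunit of pericytes and smooth muscle, read 8.50, 8.14, 8.45 and 8.16 in DJ-1 hearts and 8.53, 8.59, 8.96 and 8.92 in placebo hearts, by replicate number. Kcnj8 did not overlap between the groups, though DJ-1 replicate 1 and placebo replicate 1 nearly met, and its difference was -0.44 (SE 0.13, limma adjusted p = 0.824). Ebf1, a transcription factor of pericytes and of B lymphocytes, read 7.73, 7.96, 7.93 and 7.99 in DJ-1 hearts and 8.24, 8.19, 8.22 and 8.35 in placebo hearts. The Ebf1 groups were likewise apart, with a difference of -0.35 (SE 0.09, limma adjusted p = 0.824). Groups without overlap, with DJ-1 lower, were found for 1.68% of all genes. Anpep, the aminopeptidase N gene, differed by -0.33 (SE 0.11) with overlapping groups.

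The averages of the 15 other pericyte genes ran from -0.185 to -0.01 in DJ-1 hearts and from 0.02 to 0.16 in placebo hearts. The count of 14 of 15 became 12 without DJ-1 replicates 3 and 4, with a median of -0.07, and 9 without replicates 3 and 4 of both groups, with a median of -0.06. In the same 2 settings all 4 of Pdgfrb, Notch3, Rgs5 and Cspg4 had a lower mean, although Rgs5 differed by only -0.0002 in the second. Of 14 other contractile genes, 9 had a lower and 5 a higher mean, with a median of -0.07 and 0 past the adjusted threshold. That median was -0.03 without placebo replicate 3, with 8 lower and 6 higher, and -0.04 without DJ-1 replicate 4. Above the median level 9 of 13 of these contractile genes had a lower mean, as did 61.2% of all genes there. Itga8, the integrin alpha-8 gene, was lower in every DJ-1 heart, as were 1.68% of all genes. Its difference was -0.38 (SE 0.11, limma adjusted p = 0.824). Mustn1, a small protein of muscle, differed by 0.23 (SE 0.11), and Ppp1r14a, an inhibitor of myosin phosphatase, by -0.16 (SE 0.10).

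**Figure D3:**
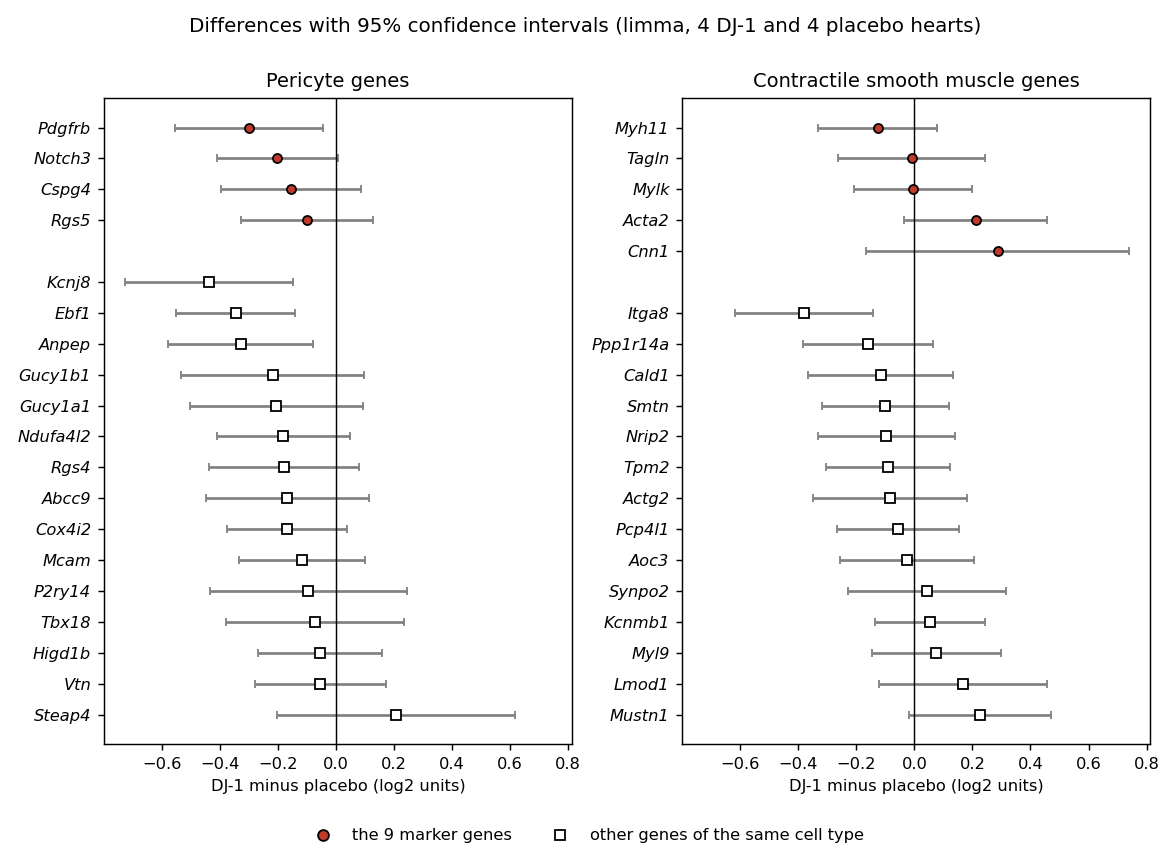
Difference between DJ-1 and placebo hearts in log2 units (x axis), with its 95% confidence interval from limma, for pericyte genes (left) and contractile smooth muscle genes (right); filled circles are the 9 genes and open squares the other genes of the same cell type. Most pericyte points lie left of 0, Steap4 being on the right, and the contractile points lie on both sides.

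Of the signals upstream of these receptors, the PDGF ligands differed little. Pdgfb, the ligand made by endothelium, differed by -0.05 (SE 0.09) and Pdgfa by 0.05 (SE 0.11), while Pdgfra, the receptor of fibroblasts, differed by -0.25 (SE 0.14). Among 11 other genes of the Notch pathway, 8 had a lower and 3 a higher mean, with 0 past the adjusted threshold. The median of the Notch genes was -0.04, and -0.07 to -0.003 with each array left out. The split was 6 lower and 5 higher with quantile normalization, with cyclic loess and without placebo replicate 4. Without DJ-1 replicate 1 it was 10 lower and 1 higher. Above the median level 7 of 10 Notch genes had a lower mean, as did 61.2% of all genes there. Heyl, a transcriptional repressor induced by Notch in mural cells, read 6.92, 6.93, 7.10 and 7.21 in DJ-1 hearts and 7.04, 7.35, 7.25 and 7.60 in placebo hearts. Those Heyl values overlapped between the groups and differed by -0.27 (SE 0.13), and Hey1, a related repressor, differed by -0.24 (SE 0.14). The Notch ligand gene Jag2 differed by 0.12 (SE 0.11). In the serum response factor group, the factor's coactivator genes Mrtfb and Myocd differed by 0.23 (SE 0.13) and -0.15 (SE 0.12), and Klf4, which represses contractile genes, by -0.13 (SE 0.18). None of these 5 genes passed (0 of 5).

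The markers of other cells in the same tissue gave the following values beside the pericyte genes. Of 10 fibroblast markers, 9 were lower on average in DJ-1 hearts, with a median of -0.10. Among them were Gsn at -0.21 (SE 0.08), Lum at -0.31 (SE 0.13) and Pdgfra. Gsn was lower in every DJ-1 heart, without overlap, as were 1.68% of all genes. Without placebo replicate 2 the fibroblast count was 7 of 10 and the median -0.02, and without placebo replicate 3 they were 7 of 10 and -0.09. The fibroblast averages ran from -0.14 to 0.004 in DJ-1 hearts and from -0.03 to 0.17 in placebo hearts. Endothelial markers were lower for 6 of 10 genes, with Kdr at -0.48 (SE 0.16), Emcn at -0.21 (SE 0.11) and Tie1 at -0.13 (SE 0.09), and higher for 4, with Cldn5 at 0.23 (SE 0.22) and Flt1 at 0.12 (SE 0.11), and the median was -0.08. Their averages ran from -0.14 to 0.02 in DJ-1 and from -0.13 to 0.11 in placebo hearts. All 10 fibroblast and all 10 endothelial markers lay above the median level, where 61.2% of all genes had a lower mean. Ventricular cardiomyocyte markers were lower for 6 of 8, with Ttn at -0.31, Ryr2 at -0.18 and Myh6 at -0.06. The other 2 were higher, Actc1 among them at 0.03 (SE 0.08). The cardiomyocyte median of -0.03 was also that of all genes above the median level. The cardiomyocyte averages ran from -0.14 to 0.09 in DJ-1 and from -0.05 to 0.15 in placebo hearts. All 8 neutrophil markers were higher on average in DJ-1 hearts, with Lcn2 at 1.07 (SE 0.49), Ngp at 1.06 (SE 0.57) and Mmp8 at 1.25 (SE 0.68). The neutrophil median of 0.92 was 0.57 without DJ-1 replicate 2 and came to 0.50 when placebo replicate 4 was left out, with 7 of 8 higher in both cases. Their averages were widely spread, from -0.62 to 1.41 in DJ-1 hearts and from -1.84 to 1.05 in placebo hearts. All genes of these 4 lists lay above the background level, and none passed the adjusted threshold (0 genes). Their part in the differences of Pdgfrb, Notch3, Rgs5 and Cspg4 was not tested.

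Whether the 9 genes vary together between hearts was examined over their 36 pairs, by Pearson's r with exact permutation p-values adjusted over these pairs. The 6 pairs within the pericyte set had r from -0.03 to 0.81 with a median of 0.46, the 10 contractile pairs from -0.50 to 0.71 with a median of 0.11, and the 20 pairs between the sets from -0.97 to 0.81 with a median of -0.05. On deviations from the group means, which take out the difference between the groups, the pericyte median was 0.01 and the contractile median 0.12. An unadjusted p under 0.05 was found for 5 pairs, and 1 pair passed after adjustment.

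That pair was Notch3 and Acta2, a pericyte and a contractile gene, which ran in opposite directions. The heart with the highest Notch3 value, placebo replicate 2, had the lowest Acta2 value, and DJ-1 replicates 3 and 4, with the lowest Notch3 values, had the highest Acta2 values. Pearson's r was -0.967 over 8 hearts (exact permutation p = 0.00015, adjusted p = 0.0054), and Spearman's rho was -0.952 (exact permutation p = 0.00114, adjusted p = 0.0411). On deviations from the group means r was also -0.967, so the relation held within the groups. Without the 2 hearts farthest from the median of Notch3, r was -0.895, with an adjusted exact permutation p of 0.325 over 6 hearts. With 6 hearts a lone pair cannot pass whatever its r, so this p does not decide whether the relation held.

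The call of Notch3 and Acta2 depended on the scaling: r was -0.83 with quantile normalization and -0.878 with cyclic loess, where adjusted exact permutation p was 0.24 and 0.108, and -0.935 with arrays centred on their medians, where it was 0.0241. With each heart left out r lay between -0.984 and -0.926, and the pair missed the threshold without placebo replicate 2 (adjusted exact permutation p = 0.139). Among 13692 genes above the background level, Acta2 had the lowest r of all with Notch3. For Acta2, 4 genes including Notch3 had r at or below -0.967 (0.0292%). Counting either sign, 3 genes including Acta2 had an r at least as strong with Notch3, and 6 including Notch3 with Acta2. The pair was picked for its r on these same arrays, so these ranks and counts describe it and carry no test. They were read on the deposited scaling only. The main axis of difference between whole arrays, the first principal component, held 26.3% of the variance and on which DJ-1 replicates 3 and 4 had scores of 19.6 and 23.5, while the other 6 arrays had scores from -15.0 to 5.3. None of the 9 genes had a correlation with this axis that passed after adjustment (0 of 9). The correlation was 0.803 for Acta2 (exact permutation p = 0.0143, rho 0.762 with exact permutation p = 0.0368), -0.713 for Rgs5 (exact permutation p = 0.0437, rho -0.619 with exact permutation p = 0.115) and -0.678 for Notch3 (exact permutation p = 0.0612, rho -0.69 with exact permutation p = 0.0694). Over the 9 genes the smallest adjusted p of this relation was 0.129, and without the 2 arrays farthest from the median of the axis r was 0.535 for Acta2, -0.278 for Rgs5 and -0.292 for Notch3. The part of this axis in the relation of Notch3 and Acta2 was not tested.

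**Figure D4:**
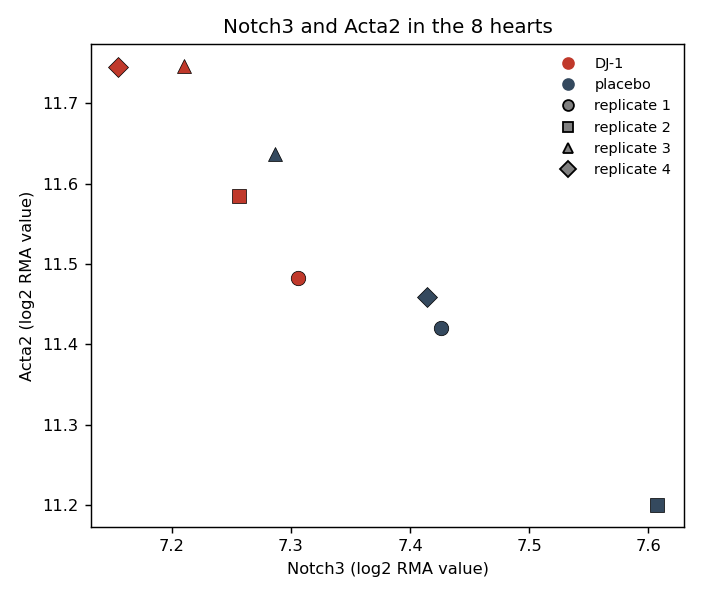
Acta2 (y axis) against Notch3 (x axis), both as log2 values, in the 4 DJ-1 and 4 placebo hearts, with a marker shape for each replicate number. Acta2 is lowest where Notch3 is highest, in placebo replicate 2, and r is -0.967.

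The other 4 pairs with an unadjusted p under 0.05 were positive. Pdgfrb and Cspg4, both pericyte genes, had r = 0.813 (exact permutation p = 0.0099, adjusted p = 0.152) and 0.741 on deviations from the group means. Rgs5 and the contractile gene Tagln had r = 0.807 (exact permutation p = 0.0126, adjusted p = 0.152) and 0.867 on deviations. Myh11, a contractile gene, had r = 0.722 with Pdgfrb and 0.735 with Cspg4 (adjusted exact permutation p = 0.253 each). Spearman's rho was 0.714 for Pdgfrb with Cspg4, 0.762 for Rgs5 with Tagln and 0.595 for Cspg4 with Myh11, and without the 2 hearts farthest from the median of the first gene r came to 0.518, 0.574 and 0.205. The strongest contractile pair was Tagln and Cnn1, with r = 0.708 and an adjusted exact permutation p of 0.253. High values of r thus occurred within the pericyte set, within the contractile set and between them.

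**Figure D5:**
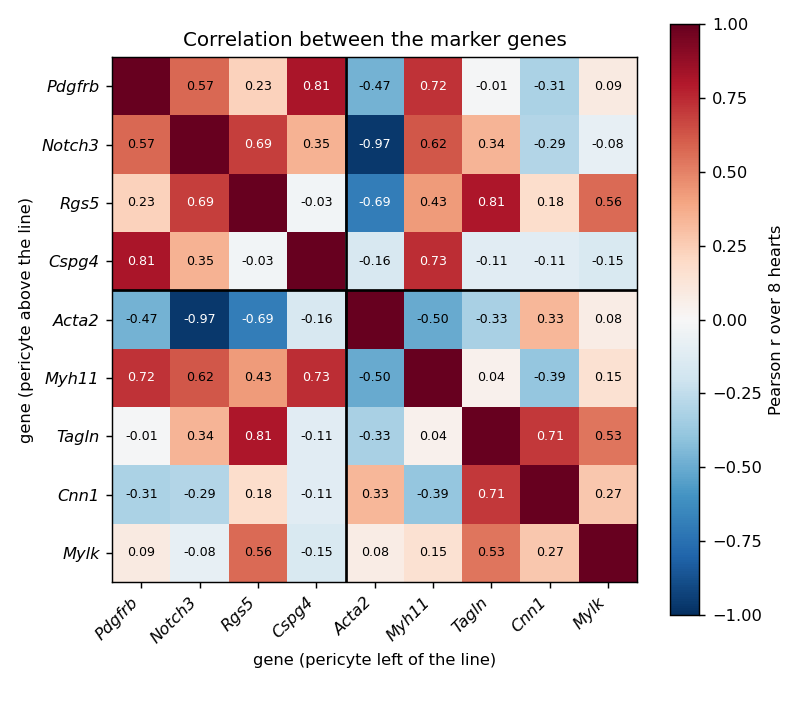
Pearson r over the 8 hearts for each pair of the 9 genes (both axes), from blue for negative to red for positive, with lines between the 4 pericyte and 5 contractile genes. The darkest blue field is Notch3 with Acta2, and red fields lie on both sides of the lines.

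The genes most like each set were taken by Pearson's r over the 8 hearts on deviations from the group means, among the 12794 genes above the background level that remained without the 9 genes, olfactory and vomeronasal receptors, predicted or unnamed genes and small RNA genes. For the pericyte average they were Bhlhe41, a repressor of the circadian clock, at r = 0.958, Herc2 at 0.957, Fn3krp at 0.955, Epsti1 at 0.95 and Pip4k2c at 0.944, where the 95th percentile of all these genes was 0.641. Bhlhe41 differed by -0.34 (SE 0.15) between DJ-1 and placebo hearts. For the contractile average they were Chaf1a, a subunit of a chromatin assembly factor, at 0.989, Tmed8 at 0.977, the zinc-finger factor gene Klf6 at 0.956, Zbed3 at 0.953 and Ran, a GTPase of nuclear transport, at 0.95, with a 95th percentile of 0.63. Without the 2 hearts farthest from the median, r ran from 0.806 to 0.904 for the first 5 genes and from 0.885 to 0.975 for the second 5. These genes were the closest of many, so their r values are descriptions and carry no test.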

How the data were processed

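Each myocardial sample gave 100 ng of total RNA (RNA integrity number above 7) for 1 whole-transcript array made by Affymetrix, as the labels' protocols state. The deposited log2 values of 35556 probe sets were made by the authors with RMA, per the submitters' processing notes, and the software version is not given in the sources used here. Array medians lay between 5.25 and 5.35, and the highest were those of DJ-1 replicates 3 (5.34) and 4 (5.35). These arrays also had the highest scores on the first principal component. Correlations between arrays lay between 0.978 and 0.987, and the number of arrays limits the precision. Scan dates and slides were not used here. The platform annotation gave 1 symbol to 21789 probe sets, and the one of highest mean was taken per gene.

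DJ-1 was compared with placebo hearts by limma 3.58.1 in R 4.3.3 (lmFit and eBayes, two-sided, Benjamini-Hochberg over 19938 genes, no covariate), tested on simulated data. Correlations used exact two-sided permutation. The members, gene lists and tests were chosen with earlier results of these data known. The text names the 9 genes, the 3 genes of smallest p in each other list (2 lists share Pdgfra), the 5 nearest genes per set, and further genes after their values were seen. A deviation check gave same-numbered arrays correlations of 0.005, 0.171, 0.177 and 0.008. Without the values of differently numbered arrays beside them, these do not settle whether the numbers pair the arrays. Alternatives covered normalization, filters, probe sets, variance models, the replicate block and arrays left out. Mean levels of different genes are not compared, since probe sets differ in brightness. Gene positions and promoter sequences are those of RefSeq, GRCm38.p6.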

Additional observations from a re-analysis of the deposited data

How the results depend on the processing

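Across the alternatives, 7 of the 9 genes kept the sign of their difference and 0 of 9 passed, with limma or exact permutation adjusted p from 0.688 to 1. For exact permutation this count decides nothing, since its p cannot be under 0.0286 with 4 hearts a group. After adjustment over all genes, a lone gene cannot pass that test whatever its difference. The filters, probe set means, variance models, replicate block and exact permutation leave the difference of each of the 9 genes as it was. A sign could change only with normalization or with arrays left out, so the count of 7 speaks to these alone. Tagln and Mylk, both near 0, changed sign: with quantile normalization they differed by 0.0229 and 0.0291, with cyclic loess by 0.0367 and 0.0413, without DJ-1 replicates 3 and 4 by 0.0486 and 0.0524, and without replicates 3 and 4 of both groups by 0.073 and 0.143, and the cause was not tested. With each array left out, Tagln ran from -0.079 to 0.0647 and Mylk from -0.0495 to 0.0304. The replicate block (numbers that are not known to pair the samples) called 0 genes and gave 1302 an unadjusted p under 0.05, against 1194 without it. It left the adjusted p of the 9 genes between 0.755 and 0.996. The count of genes past an adjusted limma p of 0.05 was 0 to 1 with each array left out (Pramel27 without DJ-1 replicate 3) and 1 without replicates 3 and 4 of both groups (Car3), both genes chosen after their values were seen, and the cause was not tested. With 6 arrays, after leaving out the 2 farthest from the median, 0 of 36 pairs passed. With so few arrays a lone pair cannot reach an adjusted exact permutation p under 0.05 whatever its r, so this count decides nothing for such a pair. The pericyte average differed by -0.23 to -0.15, the contractile average by 0.02 to 0.12 and their contrast by -0.34 to -0.22. The settings for Notch3 with Acta2, and those for the lists, were chosen after seeing the data. Without DJ-1 replicates 3 and 4, Notch3 and Acta2 had r = -0.955 (adjusted exact permutation p = 0.075), again over 6 arrays.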

Other observations

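Genes related to Acta2 and Mylk were read on the same arrays. Acta1, the skeletal alpha-actin gene that is also expressed in heart, averaged 11.21 ± 0.43 in DJ-1 hearts and 10.88 ± 0.48 in placebo hearts (SD, n = 4 each), a difference of 0.34 (SE 0.25). The cardiac alpha-actin gene Actc1 averaged 13.87 ± 0.04 in DJ-1 hearts and 13.85 ± 0.03 in placebo hearts (SD, n = 4 each). Over the 8 hearts Acta2 had r = 0.832 with Actc1 (exact permutation p = 0.0103, adjusted over 4 actin pairs p = 0.0412). Spearman's rho was 0.81 (exact permutation p = 0.0218) and did not pass after the same adjustment (p = 0.0872). Without the 2 hearts farthest from the median of Acta2, r was 0.711. Actc1 ran only from 13.82 to 13.92 over the 8 hearts, near 14.36, the highest value on the arrays. These r values were read on the deposited scaling. With Acta1, Actb and Actg2 the r of Acta2 was 0.571, 0.526 and 0.283, and none of these passed (adjusted exact permutation p = 0.237, 0.237 and 0.499). For Notch3, r was -0.546 with Acta1, -0.706 with Actc1, -0.314 with Actb and -0.062 with Actg2, and these were not tested. Actin genes are close in sequence, and how far the Acta2 probes read its relatives was not tested. The calponin gene Cnn2, made by many cell types, was lower in every DJ-1 heart, as were 1.68% of all genes. Its difference was -0.29 (SE 0.09, limma adjusted p = 0.824), while Cnn1 differed by 0.29 (SE 0.21). Mylk4, a kinase gene related to Mylk, differed by -0.22 (SE 0.14) and Tagln2, a relative of Tagln, by 0.17 (SE 0.12).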
